A study of Zea mays with 18 samples.

Results

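Leaf RNA-seq of 2 maize genotypes before heat stress (0 h), W22 and the line labelled *nf-ya1*, was compared gene by gene. The comparison used the 6 libraries sampled at 0 h (3 of W22 and 3 labelled *nf-ya1*) of the 18 in the series, and 20249 of the 36321 genes in the expression table reached the level required for testing, 1 FPKM or more in 3 of these libraries. FPKM gives fragments per length of transcript, scaled to the mapped fragments of a library, so levels can be set side by side between genes. W22 is a maize inbred line, and *nf-ya1* is a UniformMu stock in the W22 background with a *Mutator* transposon inserted in *ZmNF-YA1* (Zm00001eb005690). All plants compared were unheated and grew at 26 °C by day and 22 °C by night with 16 h of light and 8 h of dark. The mutant is a single insertion stock, so a difference between the lines cannot be told apart from other differences between this stock and the W22 plants. How many plants went into each RNA-seq library was not stated in the sources used here, and p-values measure only the spread between these libraries. The other 12 libraries, sampled after 1 h of heat and after 2 h of recovery (R2h), were used to see how genes that differed at 0 h stood at the later times.

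NF-Y is a transcription factor built from an NF-YA, an NF-YB and an NF-YC subunit. NF-YB and NF-YC pair through folds like those of histones, and NF-YA joins the pair and makes the contacts that recognise the CCAAT box, a short motif common in promoters. Plants carry families of genes for each subunit, and members take part in seed development, flowering time, and responses to drought and heat.

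The targeted gene was lower in the mutant libraries but not absent. *ZmNF-YA1* had an FPKM of 23.1, 22.8 and 26.6 in the W22 libraries and of 13.01, 12.6 and 21.2 in the libraries labelled *nf-ya1*. All 3 mutant values lay below all 3 W22 values, and the third mutant library was the closest to W22. The log2 fold change of *ZmNF-YA1* on the log2(FPKM + 1) scale, mutant against W22, was −0.64 (SE 0.21, n = 3 per genotype, limma with Benjamini-Hochberg adjustment, adjusted p = 0.0511), which did not pass the test. The table gives 1 value per gene, so reads from before and after the insertion cannot be separated, and these values check the label only in part. The study describes its homozygous stock as lacking the transcript. By qRT-PCR it reports a mutant level far below W22 before heat and no rise of the gene with heat in the mutant. Levels in the deposited libraries differ from that description, and the reason was not tested. The libraries are therefore named by their label here, and "mutant" stands for a library labelled *nf-ya1*.

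Many more genes were higher than lower in the libraries labelled *nf-ya1*. A gene is said here to have risen or fallen where the limma adjusted p was 0.01 or less and the log2 fold change 1 or more in size. By this rule 2495 genes rose (12.3% of those tested) and 724 fell (3.58%). All 3 mutant libraries lay above all 3 W22 libraries in 41.2% of the genes tested and below them in 16.4%. The median log2 fold change of all genes was 0.24, so the level of a typical gene was itself somewhat higher in the mutant. Scaling the libraries to a common median ratio gave a median of −0.03 with 1860 rises and 1160 falls, and quantile normalization a median of −0.08 with 1471 rises and 1152 falls. The share of rises among all genes called was therefore 77.5% as deposited, 61.6% after median-ratio scaling and 56.1% after quantile normalization. Leaving out one W22 library reduced the rises to 1027, 922 and 1142 without libraries 1, 2 and 3 in turn, and the falls to 244, 226 and 398. Of 88 called genes chosen to be named, 34 kept their call whichever of the 6 libraries was left out. Lost calls are given below for some genes only, so a call without such a count need not be stable.

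**Figure D1:**
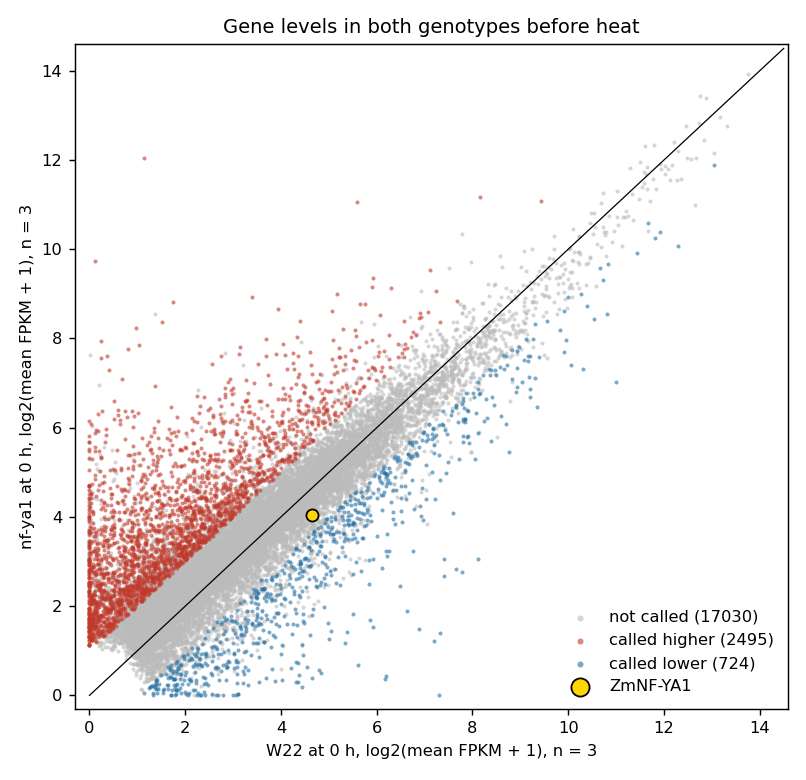
Mean level of each gene tested in W22 (horizontal axis) and in the libraries labelled *nf-ya1* (vertical axis) at 0 h, both as log2 of the mean FPKM of 3 libraries plus 1. Each dot is a gene, red where it rose (2495), blue where it fell (724) and grey otherwise. The gold circle is *ZmNF-YA1*, close below the diagonal of equal level, and the red dots are densest at the left, where W22 levels were low.

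The mutant libraries differed more from each other than the W22 libraries did. Across genes, the correlation between libraries of log2(FPKM + 1) was 0.977 to 0.987 within W22, 0.913 to 0.940 within *nf-ya1* and 0.785 to 0.851 between the genotypes. The median SD of a gene over its 3 libraries was 0.146 in W22 and 0.267 in *nf-ya1*, and 73.4% of the genes had the larger SD in *nf-ya1*. The third mutant library stood farthest from W22 in 53.7% of the genes that rose. W22 libraries listed 26177 to 26534 genes above 0 and mutant libraries 27545 to 28580. FPKM summed to 856046 to 913297 in W22 and 804977 to 836808 in *nf-ya1*, and the 20 highest genes held 19.3 to 20.7% and 15.7 to 17.9% of these sums. Markers of the leaf were abundant in every library. The 21 genes with a chlorophyll a/b binding domain summed to between 48009 and 69484 FPKM and the 3 carbonic anhydrase genes to between 1086 and 2106.

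A pair of lists had been meant to stand for other organs and for dividing tissue, but their members mark these only in part. The 42 genes with a lipid transfer or caleosin domain, both common in seeds and in epidermal or reproductive tissue, summed to 796 to 1380 FPKM in W22 and to 4259 to 13519 in *nf-ya1*. Of their 27 genes tested 5 rose and 2 fell, and the 3 tested caleosin genes, which code for oil body proteins, had log2 fold changes of −2.66 (Zm00001eb371550), −2.10 (Zm00001eb253760) and −0.46 (Zm00001eb280730), none past the test. The 9 genes with FtsZ, other cell division or CDT1 domains summed to 26.3 to 28.5 FPKM in W22 and to 46.3 to 72.7 in *nf-ya1*, with 3 rises and 1 fall among 7 tested. Either scaling left 1 rise, as did leaving out W22 library 1 or 3 or mutant library 3, while no gene rose without W22 library 2 and none fell without W22 library 1. FtsZ and the division site protein are known for the division of plastids, and CDT1 for the licensing of DNA replication. CDT1-domain gene Zm00001eb377000 was the one that fell, from 6.30 to 2.27 FPKM on average. In the first list, Zm00001eb163910 and Zm00001eb406100 averaged 2310 and 2119 FPKM of a mean mutant sum of 7500. Of its 27 tested genes, 20 did not pass the test. The summed levels of both lists moved with the genotype, and their part in the results that follow was not tested. Fewer cells of a type and less RNA per cell cannot be told apart in such bulk samples.

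Of the 6 genes whose promoters the study assayed with ZmNF-YA1, 2 rose, 2 fell and 2 did not pass the test. *ASN3* (Zm00001eb013430), an asparagine synthetase that forms the nitrogen carrier asparagine, had an FPKM of 17.8, 20.2 and 6.80 in W22 and of 1.60, 0.84 and 0.28 in *nf-ya1*. The groups did not overlap, with the third W22 library well under the other two, and the log2 fold change was −2.99 (SE 0.44, adjusted p = 0.00285). *HUP26* (Zm00001eb406490), a hypoxia response protein of unknown function, stood at 142, 146 and 102 FPKM in W22 and at 15.3, 11.7 and 33.0 in *nf-ya1*, or −2.75 in log2 (SE 0.37, adjusted p = 0.00204). *NIP2c* (Zm00001eb372380), a membrane channel of the NOD26-like intrinsic protein family, measured 24.97, 26.6 and 19.4 FPKM in W22 and rose to 45, 83.0 and 79.8, or 1.47 in log2 (SE 0.26, adjusted p = 0.00579), with the call lost in 9 of 21 alternative analyses, among them leaving out any one W22 library. The calls of *ASN3* and *HUP26* were lost without W22 library 1 or 2. *JIH5* (Zm00001eb211100), an enzyme that splits the active jasmonate conjugate, was low in both lines, at 0.46, 0.91 and 0.48 FPKM in W22 and 2.06, 2.32 and 4.03 in *nf-ya1*. Its log2 fold change was 1.21 (SE 0.24, adjusted p = 0.00925), and the call was lost in 12 of the 20 alternative analyses that tested it. The transcription factor gene *bZIP100* (Zm00001eb373300) had all mutant values (5.36, 5.19 and 8.97) below all W22 values (12.0, 12.99 and 10.5), with a log2 fold change of −0.80 (adjusted p = 0.0264). *GRF1* (Zm00001eb080570) measured 246.1, 262.3 and 253.2 FPKM in W22 and 245.3, 156.8 and 151.2 in *nf-ya1*, so that the highest mutant library lay just under the lowest W22 library, with a log2 fold change of −0.49 (adjusted p = 0.0929). The genes were chosen by the study for their relation to *ZmNF-YA1*, so their directions are not independent evidence.

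**Figure D2:**
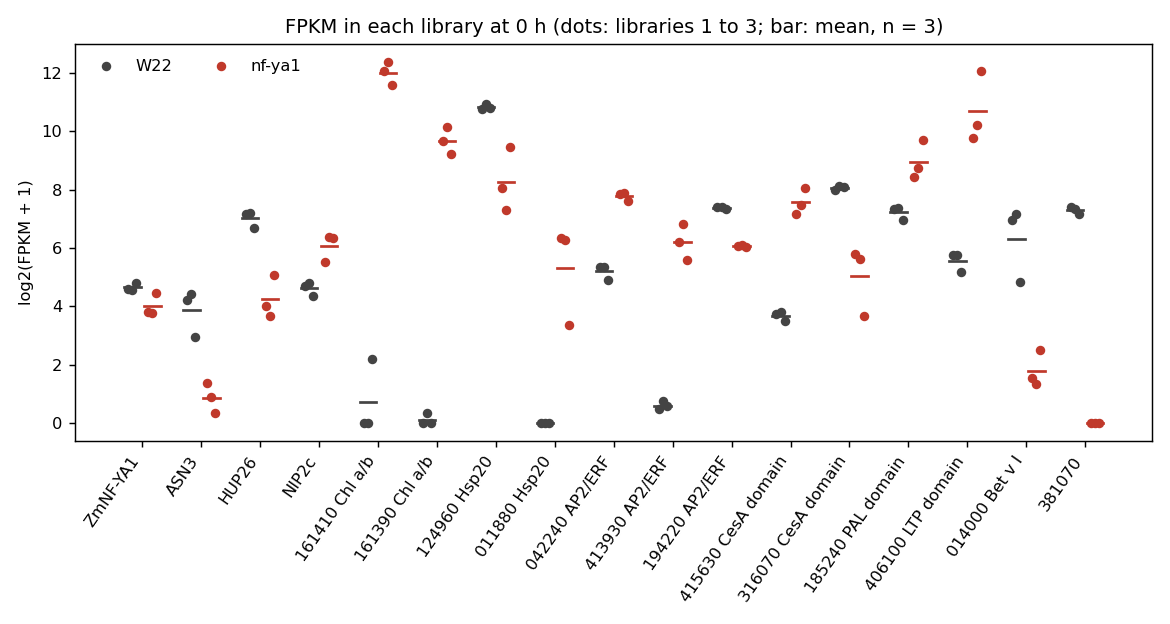
Level of 17 genes described in the text in each library at 0 h, as log2(FPKM + 1). Grey dots are the 3 W22 libraries, red dots the 3 libraries labelled *nf-ya1*, and bars their means. Genes named by digits have IDs that start with Zm00001eb. The chlorophyll a/b binding genes Zm00001eb161410 and Zm00001eb161390 and Hsp20 gene Zm00001eb011880 are at or near 0 in W22 and gene Zm00001eb381070 is at 0 in *nf-ya1*, while the targeted gene *ZmNF-YA1* shifts little.

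Other gene groups were formed by protein domain. Domains were known for 1996 genes, all of them among those the study itself had called in at least one of its 7 comparisons, so a high share of differing members is built into these groups. Of the 1620 such genes tested, 20.3% rose and 5.80% fell, and their median log2 fold change was 0.32. These shares and those over all genes (12.3% and 3.58%) are the ones to read the group counts against. The domains come from a list sorted by name that ends within the letter C, so groups with later names are missing. Values in parentheses below are log2 fold changes on the log2(FPKM + 1) scale, *nf-ya1* against W22, with their SE and limma adjusted p.

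Many transcription factor genes of the AP2/ERF group rose. These proteins bind GCC box and dehydration-responsive elements, and many act in ethylene, cold, drought or wound responses. Of 74 tested AP2/ERF genes 37 rose (50%) and 4 fell, with a median log2 fold change of 1.33, and after quantile normalization 28 rose and 5 fell. Without W22 libraries 1, 2 and 3 in turn 22, 17 and 22 rose, and without a mutant library 31 to 38 did, with the median between 1.21 and 1.36. Zm00001eb042240, the most abundant one that rose, was at 39.9, 40.2 and 28.7 FPKM in W22 and at 232, 237 and 194 in *nf-ya1* (2.58, SE 0.17, adjusted p = 0.000259). Zm00001eb352580 stood at 21.1, 25.7 and 15.9 FPKM in W22 and at 125, 157 and 88.7 in *nf-ya1* (2.49, SE 0.25, adjusted p = 0.000855). In both genes every mutant library was far above every W22 library. Zm00001eb413930 was close to silent in W22, at 0.39, 0.68 and 0.48, and reached 72.99, 111 and 46.6 in *nf-ya1* (5.60, SE 0.30, adjusted p = 0.000167). Zm00001eb038070 was likewise at 0.24, 0.59 and 0 FPKM in W22 and at 41.0, 111 and 17.5 in *nf-ya1* (5.14, SE 0.61, adjusted p = 0.00135). The 37 genes that rose had a median W22 level of 0.927 FPKM and a median mutant level of 19.2 FPKM. A gene under 1 FPKM in W22 cannot fall by 1 on this scale and enters the test through its mutant libraries. Of the 110 genes with the domain 74 were tested, so the share of rises and their low W22 levels are partly set by scale and filter. Zm00001eb194220 went the other way and was the tightest of the group, at 168, 168 and 159 FPKM in W22 and 66.0, 67.4 and 63.8 in *nf-ya1* (−1.32, SE 0.11, adjusted p = 0.000401).

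Genes with a CCT domain, which is shared by CONSTANS-like flowering regulators and the pseudo-response regulators of the circadian clock, moved in both directions. Together with genes carrying the CO/COL/TOC1 site, 6 of 32 rose and 4 fell, and the median log2 fold change of 0.02 became −0.26 and −0.22 under the scalings. Without W22 library 1 or 2, 2 CCT genes fell. The 4 CCT genes that fell had W22 means of 55.9 to 333 FPKM and the 3 that rose of 0.40 to 3.59, a contrast that scale and filter again partly set. Zm00001eb216410 measured 350, 336 and 314 FPKM in W22 and 150, 160 and 157 in *nf-ya1* (−1.09, SE 0.11, adjusted p = 0.000907). Zm00001eb425790 (−1.34, SE 0.19) and Zm00001eb391230 (−1.25, SE 0.16) fell by similar amounts, from W22 means of 129 and 99.05 FPKM. CO/COL/TOC1 gene Zm00001eb312170 was at 94.0, 96.5 and 92.9 FPKM in W22 and 183, 225 and 167 in *nf-ya1*, just past the fold threshold (1.00, SE 0.14, adjusted p = 0.00259). B-box genes code for zinc finger regulators of light responses, and 1 of 14 rose and 1 fell. The rise was lost without any 1 of the W22 libraries and without mutant library 2 or 3, and 2 fell without mutant library 1. The one that fell, Zm00001eb103370, stood at 186, 205 and 167 FPKM in W22 and 67.2, 83.2 and 79.5 in *nf-ya1* (−1.27, SE 0.14, adjusted p = 0.00107). Basic-leucine zipper genes, the class of *bZIP100*, had 1 rise and 2 falls in 37 tested, both shares below those of all genes with a known domain, although median-ratio scaling gave 9 falls. No fall was called without W22 library 1 or 2, 1 was without W22 library 3, and 4 were without mutant library 1. The rise was lost without any 1 of the W22 libraries, and 2 genes rose without mutant library 3. The pair that fell were Zm00001eb336820, from a W22 mean of 10.5 to 3.88, and Zm00001eb189840, from 6.27 to 0.64.

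Of 40 auxin response genes tested 11 rose and 1 fell, with 8 rises and 2 falls under either scaling and 5, 6 and 7 rises without W22 libraries 1, 2 and 3 in turn. Auxin response factors bind auxin-responsive promoters, and AUX/IAA proteins repress them until auxin triggers their breakdown. Of 10 auxin response factor genes tested 5 rose and none fell, with a median log2 fold change of 0.95. These were genes of modest level, and the 5 that rose had mutant means of 3.87 to 13.2 FPKM. Without W22 libraries 1, 2 and 3 in turn 1, 2 and 2 were called, and without mutant library 2 it was 3. Of 30 AUX/IAA genes 6 rose and 1 fell, with a median of 0.62. Zm00001eb301590 measured 8.60, 7.76 and 6.93 FPKM in W22 and 67.1, 103 and 47.5 in *nf-ya1* (3.0, SE 0.27, adjusted p = 0.000578). Zm00001eb135570 was at 7.12, 6.19 and 7.37 FPKM in W22 and 39.5, 30.5 and 35.4 in *nf-ya1* (2.19, SE 0.15, adjusted p = 0.000259). The most abundant AUX/IAA gene that rose, Zm00001eb350370, went from 28.6, 28.0 and 33.8 to 106, 57.2 and 89.6 (1.41, SE 0.23, adjusted p = 0.00456, lost in 6 of 21 alternatives). In each of these genes the lowest mutant library was above the highest W22 library.

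Small heat shock protein genes moved in both directions before any heat was applied. These Hsp20 proteins hold unfolded proteins in solution and are best known for their strong heat induction. The 43 genes with the domain summed to 4763, 5238 and 4653 FPKM in W22 and to 1617, 1031 and 2310 in *nf-ya1*. Of 39 tested, 11 rose and 8 fell, and the median log2 fold change was −0.81. The 8 that fell had W22 means of 10.6 to 1807 FPKM, and the 11 that rose were at 1.99 FPKM or less in W22. A gene under 1 FPKM in W22 cannot fall by 1 on this scale and enters the test through its mutant libraries, so the low W22 levels of the rises are partly set by scale and filter. Zm00001eb124960, the most abundant, stood at 1719, 1936 and 1765 FPKM in W22 and 267, 158 and 696 in *nf-ya1* (−2.54, SE 0.50, adjusted p = 0.00843). Every mutant library was below every W22 library, with wide scatter, and this call was lost in 10 of 21 alternative analyses with the direction kept. Zm00001eb011900 measured 867, 915 and 948 FPKM in W22 and 281, 183 and 404 in *nf-ya1* (−1.72, SE 0.28, adjusted p = 0.00424, lost in 7 of 21 alternatives). Zm00001eb371530 was at 223, 239 and 203 FPKM in W22 and 48.5, 37.5 and 80.0 in *nf-ya1* (−2.05, SE 0.27, adjusted p = 0.00192). Zm00001eb034050 fell from a W22 mean of 202 to 87.2 (−1.25, SE 0.24, lost in 9 of 21 alternatives) and Zm00001eb397940 from 30.6 to 2.10 (−3.51, SE 0.41). In all 5 of these genes the second mutant library was the lowest. Zm00001eb011880 stood at the other end, listed at 0 in all 3 W22 libraries and at 79.6, 76.8 and 9.22 in *nf-ya1*. Without W22 libraries 1, 2 and 3 in turn the group had 7, 7 and 8 rises and 1, 0 and 2 falls, and without mutant library 1 it had 5 falls. Its median stayed between −0.97 and −0.59 with any library left out.

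DnaJ proteins are partners of Hsp70, and 3 of the 10 DnaJ C-terminal genes fell and 2 rose, with 0 or 1 fall left when any one W22 library, mutant library 2 or mutant library 3 was omitted. Those that fell lay close together, Zm00001eb295770 from a W22 mean of 105 to 49.97 (−1.07, SE 0.16), Zm00001eb018130 from 69.2 to 33.2 (−1.04, SE 0.14) and Zm00001eb106600 from 82.9 to 40.3 (−1.03, SE 0.16). Zm00001eb288550, barely expressed in W22 at 0.17, 0.31 and 0.21, rose to 9.12, 12.9 and 35.9 (3.82, SE 0.45). Chaperonins form chambers in which proteins fold, and 3 of 26 Cpn60/TCP-1 genes rose and none fell, shares under those of all genes with a known domain. Zm00001eb286730 stood at 36.7, 31.6 and 38.9 FPKM in W22 and 98.0, 85.0 and 110 in *nf-ya1* (1.42, SE 0.15, adjusted p = 0.000866). Zm00001eb268910 measured 15.6, 12.8 and 17.6 FPKM in W22 and 63.3, 53.1 and 88.1 in *nf-ya1* (2.06, SE 0.21, adjusted p = 0.000901). None of the 6 genes with a Clp or Hsp90 activator domain passed the test, their median being −0.45.

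Chlorophyll a/b binding proteins, the antenna of the photosystems, had 3 rises and no falls in 20 tested genes. This share of rises (15.0%) was below that of all genes with a known domain (20.3%). The group median of 0.22 was close to that of all genes and became −0.09 after median-ratio scaling and 0.56 after quantile normalization. A pair of genes had very large rises. Zm00001eb161410 was at 0, 0 and 3.56 FPKM in W22 and at 4312, 5309 and 3043 in *nf-ya1* (11.28, SE 0.60, adjusted p = 0.000165). Zm00001eb161390 stood at 0, 0.26 and 0 FPKM in W22 and at 817, 1120 and 602 in *nf-ya1* (9.57, SE 0.24, adjusted p = 1.76e-05). Both are counted in the group sum, which was 66038 to 69484 FPKM in *nf-ya1* against 48009 to 53281 in W22. Near-identical antenna genes can share reads, and how the authors' counting split them was not given in the sources used here, so these values are uncertain between copies. Zm00001eb116960 rose less, from 32.0, 39.8 and 29.5 to 273, 141 and 80.4 (2.09, SE 0.41, adjusted p = 0.00874), with the call lost in 11 of 21 alternatives.

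Of 52 tested genes with domains of cell wall synthesis or structure, 24 rose and 2 fell. Cellulose synthase domain proteins polymerise cellulose and, in the related CSL families, other wall glucans. Of 18 such genes tested 10 rose and 1 fell, with a median log2 fold change of 3.07. This was the highest of the 36 domains with at least 10 tested genes, none of them with a name past the letter C. The 10 that rose had W22 means of 0.50 to 19.5 FPKM and mutant means of 23.99 to 195. Of the 21 genes with the domain 18 were tested. Genes low in W22 enter the test through their mutant libraries, so scale and filter partly set the rises here and among all cell wall genes. Zm00001eb415630 measured 12.4, 12.9 and 10.2 FPKM in W22 and 142, 175 and 268 in *nf-ya1* (3.89, SE 0.24, adjusted p = 0.000213). Zm00001eb172230 was at 19.95, 21.1 and 17.5 FPKM in W22 and 128, 159 and 299 in *nf-ya1* (3.17, SE 0.30, adjusted p = 0.000691). Gene Zm00001eb306030, annotated with the RING-type zinc finger of cellulose synthases, stood at 63.0, 44.1 and 54.9 FPKM in W22 and 189, 245 and 285 in *nf-ya1* (2.12, SE 0.20, adjusted p = 0.000681). In all 3 genes the third mutant library was the highest and no values overlapped. Without any one W22 library 6 genes of the group rose and none fell, while its median stayed between 2.52 and 3.26. The single cellulose synthase gene that fell had been the most abundant, Zm00001eb316070, at 253, 276 and 268 FPKM in W22 and 54.9, 48.4 and 11.8 in *nf-ya1* (−3.02, SE 0.53, adjusted p = 0.0058).

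Of 15 tested genes of phenylpropanoid and flavonoid enzymes 7 rose and none fell, with a median of 1.53, and after median-ratio scaling 5 rose and 1 fell. Phenylalanine ammonia-lyases open the pathway to lignin and flavonoids. Gene Zm00001eb185240, with their aromatic amino acid lyase domain, measured 160, 165 and 123.5 FPKM in W22 and 344, 426 and 835 in *nf-ya1* (1.74, SE 0.33, adjusted p = 0.00767), and its call was lost in 10 of 21 alternatives. Zm00001eb247630, of the same domain, was at 149, 155 and 97.0 FPKM in W22 and 302, 416 and 436 in *nf-ya1* (1.53, SE 0.23, adjusted p = 0.00344, lost in 6 of 21 alternatives). Chalcone synthase begins the flavonoid branch and chalcone isomerase follows it. Chalcone/stilbene synthase gene Zm00001eb198030 stood at 89.5, 95.1 and 97.9 FPKM in W22 and 250, 355 and 394 in *nf-ya1* (1.79, SE 0.19, adjusted p = 0.000905), and chalcone isomerase gene Zm00001eb062510 rose from a mean of 107 to 281 (1.36, SE 0.22). Without W22 libraries 1, 2 and 3 in turn 2, 2 and 3 genes of the group rose, without mutant library 2 it was 3, and the median stayed between 1.32 and 1.69.

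Lipid transfer domain genes held some of the largest rises, with 5 of 24 rising, 2 falling and a median of 1.85. Their share of rises (20.8%) was close to that of all genes with a known domain (20.3%). Their proteins carry lipids to cuticle and wall, and the domain is shared with seed storage albumins. Zm00001eb406100 measured 53.1, 52.5 and 35.04 FPKM in W22 and 878, 1181 and 4299 in *nf-ya1* (5.13, SE 0.57, adjusted p = 0.0011). Zm00001eb163910 was at 319, 319 and 216 FPKM in W22 and 1261, 1208 and 4461 in *nf-ya1* (2.75, SE 0.51, adjusted p = 0.00701, lost in 7 of 21 alternatives). Both were over 3 times higher in the third mutant library than in the other two, and without that library 9 genes of the group rose and its median was 1.41. Without W22 libraries 1, 2 and 3 in turn 3, 3 and 4 rose and 0, 0 and 3 fell. Zm00001eb094610 stood at 0.14, 0.56 and 0.14 FPKM in W22 and 99.6, 186 and 297.9 in *nf-ya1* (7.13, SE 0.38, adjusted p = 0.000166). Of the 37 genes with the domain 24 were tested. Genes near 0 in W22 enter the test through their mutant libraries, so scale and filter partly set the rises and the median of the group.

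**Figure D3:**
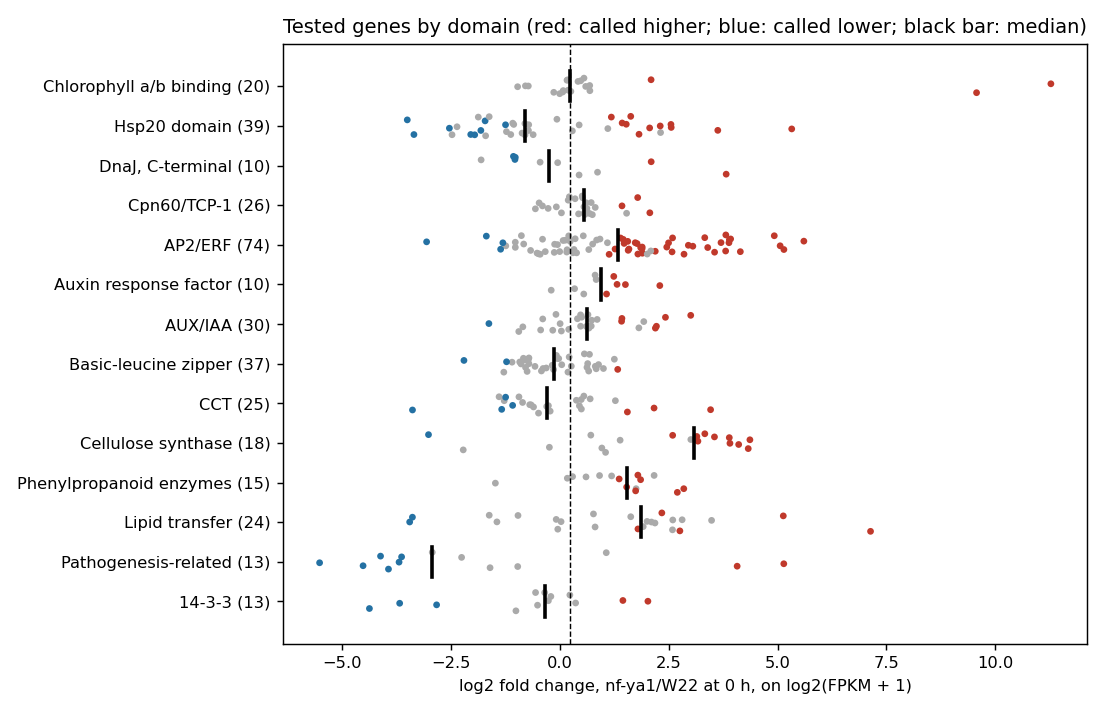
Log2 fold change of every tested gene of 14 domain groups at 0 h, *nf-ya1* against W22 on the log2(FPKM + 1) scale, with the number tested in parentheses. Red dots rose, blue dots fell, grey dots did not pass the test, black bars are group medians and the dashed line is the median of all genes (0.24). Cellulose synthase genes have the median farthest to the right (3.07) and pathogenesis-related genes the one farthest to the left (−2.94).

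Pathogenesis-related genes, which code for antimicrobial and other defence proteins, had 6 falls and 2 rises in 13 tested genes and a median of −2.94. Bet v I genes Zm00001eb013990, Zm00001eb014000 and Zm00001eb014010 have neighbouring IDs and fell together. Zm00001eb014000 measured 125, 141 and 27.7 FPKM in W22 and 1.93, 1.54 and 4.62 in *nf-ya1* (−4.53, SE 0.64, adjusted p = 0.00256). Zm00001eb014010 was at 93.5, 97.6 and 21.3 FPKM in W22 and 0.57, 0.11 and 0.22 in *nf-ya1* (−5.53, SE 0.57, adjusted p = 0.000867), and Zm00001eb013990 at 71.9, 87.0 and 19.3 against 2.15, 1.80 and 1.77 (−4.13, SE 0.53, adjusted p = 0.00177). Barwin domain gene Zm00001eb167720 stood at 38.8, 43.9 and 10.1 FPKM in W22 and 1.11, 0.23 and 2.92 in *nf-ya1* (−3.64, SE 0.63, adjusted p = 0.00544, lost in 8 of 21 alternatives). In all 4 genes the third W22 library was far below the other two. The summed level of the 17 genes was 455, 514 and 136 FPKM in W22 and 184, 115 and 137 in *nf-ya1*, so that W22 library 3 overlapped the mutant. Without that library the group had a median of −3.60 with 6 falls, while 2 genes fell without W22 library 1, 1 without W22 library 2 and 4 without mutant library 1. One Bet v I gene, Zm00001eb080380, went the other way, at 0.23, 0.23 and 0.34 FPKM in W22 and 116, 12.1 and 57.2 in *nf-ya1* (5.14, SE 0.73, adjusted p = 0.00255).

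The 14-3-3 proteins, adaptors that bind phosphorylated partners, had 3 falls and 2 rises in 13 genes. The genes that fell were nearly lost from the mutant. Zm00001eb078450 measured 21.8, 21.4 and 39.0 FPKM in W22 and 1.26, 0 and 0 in *nf-ya1* (−4.38, SE 0.39, adjusted p = 0.00054). Zm00001eb235830 was at 20.5, 15.3 and 20.7 FPKM in W22 and 1.79, 0 and 0.28 in *nf-ya1* (−3.69, SE 0.38, adjusted p = 0.000879). Zm00001eb435540 stood at 6.90, 6.87 and 8.69 FPKM in W22 and 0.65, 0 and 0 in *nf-ya1* (−2.84, SE 0.24, adjusted p = 0.000482). Zm00001eb037200 rose from a W22 mean of 1.79 to 10.1 (2.02, SE 0.21). Genes of phosphate supply went both ways, with 2 rises and 2 falls in 9, no falls without W22 library 1 or 2, and 1 fall without W22 library 3 or mutant library 2. Acid phosphatase gene Zm00001eb350080 rose from a mean of 3.43 to 60.6 (3.73, SE 0.37) and acid phosphatase gene Zm00001eb283460 fell from 39.7 to 1.26 (−4.47, SE 0.64), while putative phosphate transporter gene Zm00001eb162830 rose from 1.88 to 16.2 (2.56, SE 0.21). Of the 5 tested genes with an ABA/WDS domain, known from abscisic acid and water deficit responses, Zm00001eb407710 alone passed the test, at 1037, 1169 and 679 FPKM in W22 and 451, 377 and 345.7 in *nf-ya1* (−1.27, SE 0.23, adjusted p = 0.00697, lost in 11 of 21 alternatives).

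Single metabolic genes ranked among the largest rises of genes with a known domain. Class III aminotransferase gene Zm00001eb290370 measured 2.30, 1.79 and 1.54 FPKM in W22 and 248, 582 and 162 in *nf-ya1* (6.65, SE 0.44, adjusted p = 0.00025). Aldehyde dehydrogenase gene Zm00001eb248870 was at 0.44, 0.66 and 0.69 FPKM in W22 and 54.9, 42.1 and 312 in *nf-ya1* (5.84, SE 0.70, adjusted p = 0.00144). Amino acid transporter gene Zm00001eb161250 stood at 0.14, 0.09 and 0.04 FPKM in W22 and 52.9, 75.5 and 46.5 in *nf-ya1* (5.74, SE 0.20, adjusted p = 8.49e-05). The mutant values of all 3 genes exceeded the W22 values by more than the spread within either line on the log2 scale. The genes were named for large differences without overlap between the lines, so this separation follows from the choice.

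Among the genes that fell, those of the highest level lost only part of it. ATP synthase F0 subunit b gene Zm00001eb397520 measured 3279, 3957 and 3629 FPKM in W22 and 1592, 1099 and 953 in *nf-ya1* (−1.61, SE 0.23, adjusted p = 0.00279). Its call was lost in 6 of 21 alternatives, leaving out any one W22 library among them. Zm00001eb245320, with no annotation used here, was the most abundant, at 7570, 9765 and 8191 FPKM in W22 and 4559, 3125 and 3607 in *nf-ya1* (−1.19, SE 0.23, adjusted p = 0.00882, lost in 12 of 21 alternatives). A further 3 unannotated genes of this level fell, Zm00001eb365040 (−2.30, SE 0.34) from a W22 mean of 5031, Zm00001eb359240 (−1.60, SE 0.33) from 3886 and Zm00001eb138600 (−1.10, SE 0.19) from 3258. Their calls were lost in 5, 12 and 9 of 21 alternatives, leaving out any one W22 library among them in each case. The abundant genes that rose, besides those above, were Zm00001eb161380, at 732, 775 and 567 FPKM in W22 and 1537, 1680 and 3242 in *nf-ya1* (1.57, SE 0.31, lost in 10 of 21 alternatives), and Zm00001eb329900, at 128, 139 and 147 against 706, 934 and 566 (2.38, SE 0.20).

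Some genes were listed in one line only. At a mean of at least 5 FPKM in the other line, 143 genes were listed at 0 in all 3 W22 libraries and 11 in all 3 mutant libraries. Of the 143, 113 were above 0 in every mutant library at 0 h, 87 were at 0 in all 9 W22 libraries of the series, and 26 were in addition above 0 in all 9 mutant libraries. Zm00001eb312110 was one of the 143, at 117, 51.4 and 43.6 in *nf-ya1*. Others came and went within the mutant, such as Zm00001eb440720 at 0, 720 and 409. Among genes above 0 in at least 9 libraries, 151 shared all 18 of their values with another gene, 34 of them tested and 4 called, so a value can belong to more than 1 copy. Of the 11 genes, 1 was at 0 in all 9 mutant libraries and 8 reached 5 FPKM or more in a later one. Zm00001eb381070 was the most abundant, at 167, 161 and 143 FPKM in W22 and 0 in each mutant library at 0 h and at 1 h, yet at 10.8, 147 and 67.7 in the mutant at R2h. Another 2 genes with large falls, Zm00001eb032600 (198, 230 and 47.2 against 2.05, 0.23 and 2.68) and Zm00001eb272090 (186, 212 and 38.5 against 2.22, 1.26 and 0.49), were again lowest in the third library among the W22 values. Unannotated gene Zm00001eb429480 was among the 3 largest rises, from 0, 0.38 and 0.19 to 219, 58.0 and 458 (7.26, SE 0.68, adjusted p = 0.000652).

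The number of rises differed between stretches of neighbouring IDs. IDs follow the order of genes along the B73 chromosomes, and positions were not used here. In windows of 40 consecutive tested IDs the median number of rises was 5, the 99th percentile 12 and the maximum 19. The window with 19 ran from Zm00001eb161050 to Zm00001eb161830 and held 1 fall. It included both antenna genes that were nearly silent in W22 only, the amino acid transporter gene Zm00001eb161250 and the abundant Zm00001eb161380. At the later times, 5 of its 28 genes tested rose at 1 h and 10 of 34 at R2h, where 9.84% and 6.04% of all genes did. A second window with 17 rises, from Zm00001eb124990 to Zm00001eb125980, had 7 rises and 1 fall in 25 at 1 h and 8 rises and 3 falls in 36 at R2h. The first window had 1 fall at each later time. Median log2 fold changes at 1 h and R2h were 0.11 and 0.60 in the first window and −0.29 and −0.01 in the second. Those of all genes were −0.15 and −0.05. Both windows were picked for their rises at 0 h. Of all genes that rose at 0 h, 39.3% of those tested at 1 h rose again there, and 22.8% of those tested at R2h. More rises in the windows than in all genes are therefore partly set by that choice.

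Part of the difference at 0 h was present at the later times in other libraries. After 1 h of heat 9.84% of 17427 genes tested rose in the mutant against W22 and 8.81% fell, and at R2h 6.04% of 19842 rose and 3.73% fell. Of the genes that had risen at 0 h, 1550 were tested at 1 h and 39.3% of these rose there, while 22 genes fell. At R2h 22.8% of 1912 rose. Of the genes that had fallen at 0 h, 41.8% of 641 also fell at 1 h and 22.2% of 693 at R2h. At all 3 times 221 genes rose and 83 fell. The median log2 fold change of the genes that rose was 1.75 at 0 h and 0.97 at 1 h over those tested at both, and 1.71 and 0.46 for R2h. Since these genes were chosen for their difference at 0 h, smaller differences at other times are partly set by that choice.

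The groups had the following differences at the later times, where smaller medians are partly set by choosing the groups with results of these data known. Cellulose synthase genes had medians of 3.07, 1.47 and 0.69 at 0 h, 1 h and R2h, with 10 of 18, 8 of 14 and 6 of 13 tested genes rising. Phenylpropanoid enzymes had 7 of 13 rises at 1 h and 1 of 15 at R2h. AP2/ERF genes had 14 rises and 9 falls among 56 at 1 h, and 2 rises and 4 falls among 57 at R2h, with medians of 0.12 and −0.03. Hsp20 genes had a median of −0.81 at 0 h, 0.20 at 1 h and 0.87 at R2h, with 9 of 32 and 10 of 34 rising and none falling. The abundant Hsp20 gene Zm00001eb124960 reached 28176 to 30438 FPKM in W22 and 18490 to 19752 in *nf-ya1* at 1 h (−0.61, adjusted p = 0.0159). The 3 named 14-3-3 genes that fell at 0 h also fell at both later times, when 3 of 10 and 6 of 13 tested genes of the group fell. *ASN3* also fell at 1 h (−5.28, adjusted p = 0.000134) and did not pass the test at R2h (−0.61, adjusted p = 0.381). In a fit of all 18 libraries the genotype difference itself changed between 0 h and 1 h in 17.1% of 22572 genes and between 0 h and R2h in 12.8%. The p-values behind these shares may be too small, because the fit shares 1 spread per gene over groups of unequal spread.

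**Figure D4:**
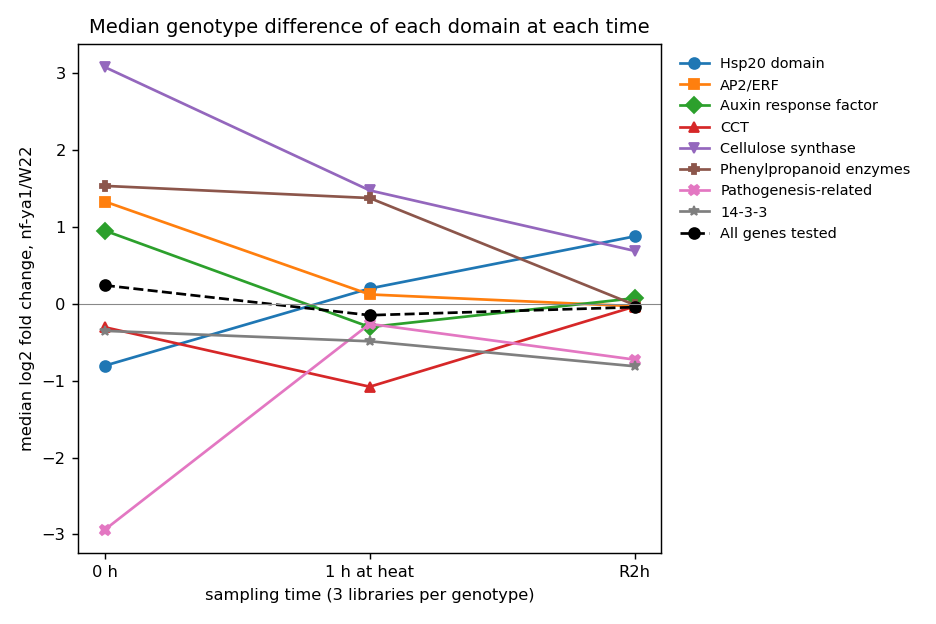
Median log2 fold change, *nf-ya1* against W22, of the tested genes of 8 domain groups and of all genes (dashed) at 0 h, after 1 h of heat and at R2h, from separate fits of 6 libraries each. Lines join medians of the same group over the genes tested at each time. The spread of the groups around the all-gene line is widest at 0 h, from −2.94 for pathogenesis-related genes to 3.07 for cellulose synthase genes. The groups were chosen with results of these data known, so the wider spread at 0 h is partly set by that choice.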

How the data were processed

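RNA-seq libraries were made and sequenced by BGI on the BGISEQ-500 platform, and reads were filtered and aligned to the maize B73 V5 reference. The aligner, the counting tool and their settings are not given in the sources used here. The authors deposited 1 table of FPKM values of 36321 genes in 18 libraries, rounded to 2 decimals, of which 2933 rows carry no gene set ID. Whole reads could not be recovered from the low values, so the depth behind each value is unknown and only the scatter of the libraries shows the precision. Titles gave the groups and times (1 h of heat, 2 h of recovery), while the deposited protocol text gives longer ones.

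The deposited FPKM were taken to log2(FPKM + 1), a scale that makes changes of low genes look smaller. Each time had its own fit of 6 libraries, over the genes at 1 FPKM or more in 3 of them, with limma 3.58.1 in R 4.3.3 (two-sided, empirical Bayes with an intensity trend). Benjamini-Hochberg adjustment ran over all genes of a fit, and the thresholds were those of the study, 0.01 for the adjusted p and 1 for the size of the log2 fold change. For 3 against 3 libraries no exact permutation p can go below 0.1. A fit of all 18 libraries, with 1 spread per gene shared by all groups, gave the change of the genotype difference with time. Figures used Python 3.11.15 and Matplotlib 3.10.9.

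Gene groups came from protein domains in the copy of the study's supplement used here, which holds part of the genes the study called. That part is cut by domain name and ends within the letter C. Groups, genes and tests were chosen with earlier results of these data known, and the domain summaries with at least 10 tested genes and the windows of IDs after the values were seen. Genes were named as *ZmNF-YA1* and the 6 promoter-assay genes, and as the largest called differences in each direction without overlap between the lines. Further named genes were the most abundant called genes in each direction, called members of each group by abundance, and genes listed at 0 in one line. Separation of the libraries in genes named this way adds nothing to their calls. Alternatives were 2 pseudocounts, 3 filters, 2 scalings, 5 other fits, 3 other thresholds and leaving out each library. A reference genome of the build, promoters and proteins were not used here.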

Additional observations from a re-analysis of the deposited data

Results flagged for a closer look

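The genotype difference changed with time in 43 of 80 named genes tested, at 1 h, at R2h or at both. The test was limma in the fit of all 18 libraries, with a Benjamini-Hochberg adjusted p of 0.01 or less and a change of at least 1 in log2. By this rule the difference changed in 17.1% of all 22572 genes at 1 h and in 12.8% at R2h. The share of all genes that changed at either time was not counted, so the 43 have no matching background. Values below are the log2 difference between *nf-ya1* and W22 at the later time minus that at 0 h, for the time with the lower adjusted p, so a negative value of a gene higher in *nf-ya1* at 0 h is a difference that became smaller. The genes were named for their difference at 0 h and the same 0 h libraries enter this test, so smaller differences later are partly set by that choice. The fit also shares 1 spread per gene over all groups. The median SD was 0.267 in *nf-ya1* at 0 h and 0.122 to 0.222 in the other groups, so p-values of this test may be too small.

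Among Hsp20 genes the change at R2h was 3.39 for Zm00001eb124960, 2.50 for Zm00001eb011900, 3.53 for Zm00001eb034050 and 4.82 for Zm00001eb397940, and at 1 h it was 2.27 for Zm00001eb371530. DnaJ genes changed at 1 h by 2.99 (Zm00001eb295770), 1.53 (Zm00001eb106600), 1.59 (Zm00001eb018130) and −2.91 (Zm00001eb288550). Chaperonin genes changed at R2h by −1.86 (Zm00001eb286730) and −1.73 (Zm00001eb268910). AP2/ERF genes changed at R2h by −5.50 (Zm00001eb413930), −5.11 (Zm00001eb038070) and −3.72 (Zm00001eb042240) and at 1 h by −3.01 (Zm00001eb352580). AUX/IAA gene Zm00001eb301590 changed by −4.02 at R2h. CCT gene Zm00001eb425790 changed by 1.38 at R2h and CO/COL/TOC1 gene Zm00001eb312170 by −2.08 at 1 h. Basic-leucine zipper genes changed at R2h by 1.49 (Zm00001eb336820) and 2.30 (Zm00001eb189840).

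Cellulose synthase genes changed at 1 h by −2.08 (Zm00001eb415630) and −1.65 (Zm00001eb172230), and chalcone synthase gene Zm00001eb198030 by −1.46 at R2h. Pathogenesis-related genes changed at 1 h by 4.16 (Zm00001eb014010) and 6.65 (Zm00001eb167720) and at R2h by 3.86 (Zm00001eb013990) and −3.74 (Zm00001eb080380). The 14-3-3 genes changed at R2h by 2.26 (Zm00001eb078450) and 1.49 (Zm00001eb435540) and at 1 h by −1.63 (Zm00001eb037200). Antenna gene Zm00001eb116960 changed by 3.80 at 1 h, acid phosphatase gene Zm00001eb283460 by 4.56 at 1 h, *NIP2c* by −1.99 at R2h, ATP synthase gene Zm00001eb397520 by 1.22 at R2h and plastid division genes Zm00001eb434230 and Zm00001eb409620 by −2.02 and −1.37 at 1 h. Aminotransferase gene Zm00001eb290370 changed by −5.92 at 1 h and amino acid transporter gene Zm00001eb161250 by −5.84 at R2h. Of the genes with no annotation used here, Zm00001eb032600 changed by 6.28, Zm00001eb272090 by 6.22 and Zm00001eb329900 by −2.63 at 1 h, and Zm00001eb245320 by 1.5 at R2h. Zm00001eb381070 changed by 7.56 at R2h on the log2(FPKM + 1) scale, a size that depends on the pseudocount because the gene was listed at 0 in the mutant at 0 h.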

How the results depend on the processing

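The number of genes higher in *nf-ya1* stayed within 1.5 times 2495 under most of the 21 alternatives. It was 1471 with quantile normalization, 1446 with a mean FPKM of at least 5 (13657 genes tested) and 478 when limma's treat tested for differences beyond 1 in log2. The number of lower genes, 724, became 1160 with median-ratio scaling, 1152 with quantile normalization, 1105 in the fit of all 18 libraries, 1144 at an adjusted p of 0.05 and 74 in the treat test. Leaving out one library gave 922 to 2487 higher and 226 to 833 lower genes, with the fewest without W22 library 2. The causes of these changes were not tested, except that fewer genes or samples entered some of the fits. With the replicate number as a block the counts were 1611 and 482. Same-numbered libraries of the genotypes deviated from their group means with correlations of −0.04, −0.05 and −0.07, so the numbers do not pair the samples. No sign of the 92 named genes tested was reversed in any alternative. Of the 88 called, 20 were called in every alternative and 34 whichever of the 6 libraries was left out. The depth behind single values is unknown, and levels under 1 FPKM carry the least weight.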
